A study of Mus musculus with 8 samples.

Results

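BMP antagonists are proteins that keep bone morphogenetic proteins (BMPs) from activating their receptors. The 8 genes followed here were chosen by symbol: *Nog*, *Grem1*, *Chrd*, *Twsg1*, *Sostdc1*, *Fst*, *Fstl1* and the pseudoreceptor gene *Bambi*. All 8 were found among the 21536 gene symbols that occur in all 3 expression tables of the study. The study measured RNA in hair follicle cells of mice of a mixed strain in which the BMP receptor gene *Bmpr1a* was deleted, in 8 libraries. Bulge hair follicle stem cells (HFSC) at postnatal day 68 gave 1 cKO library (K15-CrePGR; Bmpr1a fl/fl) and 1 Het library with the same Cre driver. Transit amplifying cells (TAC), the dividing progenitors of the hair bulb, gave at postnatal day 68 1 cKO library (Shh-CreER; Bmpr1a fl/fl) and 1 Het library with that driver. Hair bulb TAC of the K15-CrePGR line at postnatal day 80 gave the libraries KO 64 and KO 84 (Bmpr1a fl/fl) and the libraries WT 52 and WT 57. The labels state neither which alleles the Het and WT libraries carried beyond these names nor whether each library came from a single animal. A p-value below therefore rests on the spread between libraries, which may be technical for KO 64 and KO 84. WT 52 and WT 57 differed in transcripts that mark female and male cells, as given below. K15-CrePGR places a Cre that a progesterone analogue switches on under the *Krt15* promoter, which is active in bulge stem cells, from which TAC descend. Shh-CreER places a Cre that tamoxifen switches on at the *Shh* locus, which is active in part of the hair bulb.

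BMP ligands bind pairs of type I and type II receptors, and the type I receptor, here the product of *Bmpr1a*, phosphorylates Smads that switch on genes such as the *Id* genes. Antagonists act at different steps: noggin, gremlin and chordin hold the ligand away from its receptor, twisted gastrulation acts together with chordin, follistatin binds mainly activins, and the Bambi protein resembles a type I receptor but lacks the kinase. In the hair follicle, BMP signals keep bulge stem cells quiescent, and antagonists, many of them made by the dermal papilla, oppose those signals at the start of hair growth, while in the bulb BMP signals are needed for hair shaft cells to differentiate.

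Values were FPKM, fragment counts scaled to transcript length and library size, and differences are given as deleted minus control on the scale of log2(FPKM + 1). Approximate depth, read from the steps between low values, was 47.4 M fragments in the HFSC cKO library and 55.5 M in the HFSC Het library, 28.7 M and 28.6 M in the Shh-CreER cKO and Het TAC libraries, and 23.7 to 29.5 M in the 4 K15-CrePGR TAC libraries. *Bmpr1a* itself had 39.3 FPKM in the HFSC cKO library, against 31.8 FPKM in the Het library. It had 40.4 FPKM in the Shh-CreER TAC cKO library, against 46.0 FPKM in the Het library. In K15-CrePGR TAC it had 39.9 and 38.0 FPKM in KO 64 and KO 84, against 42.2 and 37.1 FPKM in WT 52 and WT 57 (limma, adjusted p = 0.948). These values cover the gene with all its exons, so the loss of single exons is not tested by them and the genotype labels are not checked. The 9 hair matrix markers summed to 519 to 840 FPKM in the 6 TAC libraries and to 69.1 FPKM in the HFSC cKO and 53.9 FPKM in the HFSC Het library. These sums come from tables normalised separately and are not on a shared scale. The 8 bulge markers summed to 3635 FPKM in the HFSC cKO and 8756 FPKM in the HFSC Het library. *Krt15* alone gave 3075 FPKM of that sum in cKO and 7834 FPKM in Het. Of the 8 bulge markers, 3 were at least 2-fold lower in cKO, against 4.6% of all genes. These were *Krt15*, *Cd34* (147 FPKM in cKO, 556 FPKM in Het) and *Fgf18* (1.72 and 26.5 FPKM). *Sox9* was at least 2-fold higher, with 120 and 59.4 FPKM (5.92% of all genes). The median log2 difference of the 8 in HFSC was -0.13, against 0.05 over all genes, so the sum does not speak for each marker. *Xist* and *Ddx3y*, which mark female and male cells, set the HFSC libraries apart, with 3.98 and 23.2 FPKM in cKO against 68.9 and 0.255 FPKM in Het. WT 52 had 3.26 FPKM of *Xist*, against 175 to 226 FPKM in the other 3 K15-CrePGR TAC libraries. It had 26.4 FPKM of *Ddx3y*, against 0.0812 FPKM in WT 57, 0.0259 FPKM in KO 64 and 0.753 FPKM in KO 84. WT 52 and WT 57 are therefore not repeats of the same sample, and their spread includes this difference. Both transcripts were present in both Shh-CreER TAC libraries. The part of these differences in the results below was not tested.

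In bulge stem cells without *Bmpr1a*, the ligand traps *Nog* and *Grem1* were 16.4-fold and 3.77-fold lower than in the Het library, and *Fstl1* was 3.21-fold higher. In Shh-CreER TAC without *Bmpr1a*, *Bambi* was 5.82-fold lower and *Fst* 2.34-fold higher. In K15-CrePGR TAC, *Fst*, *Fstl1* and *Twsg1* stood above, and *Bambi* below, both WT libraries in both KO libraries. For *Fst* this was by a narrow margin, with 4.12 FPKM in KO 84 against 4.09 FPKM in WT 52. None of the 5 genes tested there passed after adjustment over all genes, and *Nog*, *Grem1* and *Chrd* averaged under 1 FPKM and were not tested. Of the genes that averaged at least 1 FPKM in all 3 tables, *Twsg1* and *Sostdc1* had positive and *Bambi* negative differences in each. The sign of *Fst* and *Fstl1* differed between tables. The share of all genes that keep the same sign in all 3 tables was not computed. *Sostdc1* differed by only 0.22 in HFSC and 0.16 in Shh-CreER TAC, and its genotypes overlapped in K15-CrePGR TAC. *Bambi* differed by only -0.27 in HFSC. The differences of *Twsg1* were 0.50 in HFSC, 0.86 in Shh-CreER TAC and 0.50 in K15-CrePGR TAC. In these bulk samples, a smaller number of cells of a type and less RNA per cell cannot be told apart.

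**Figure D1:**
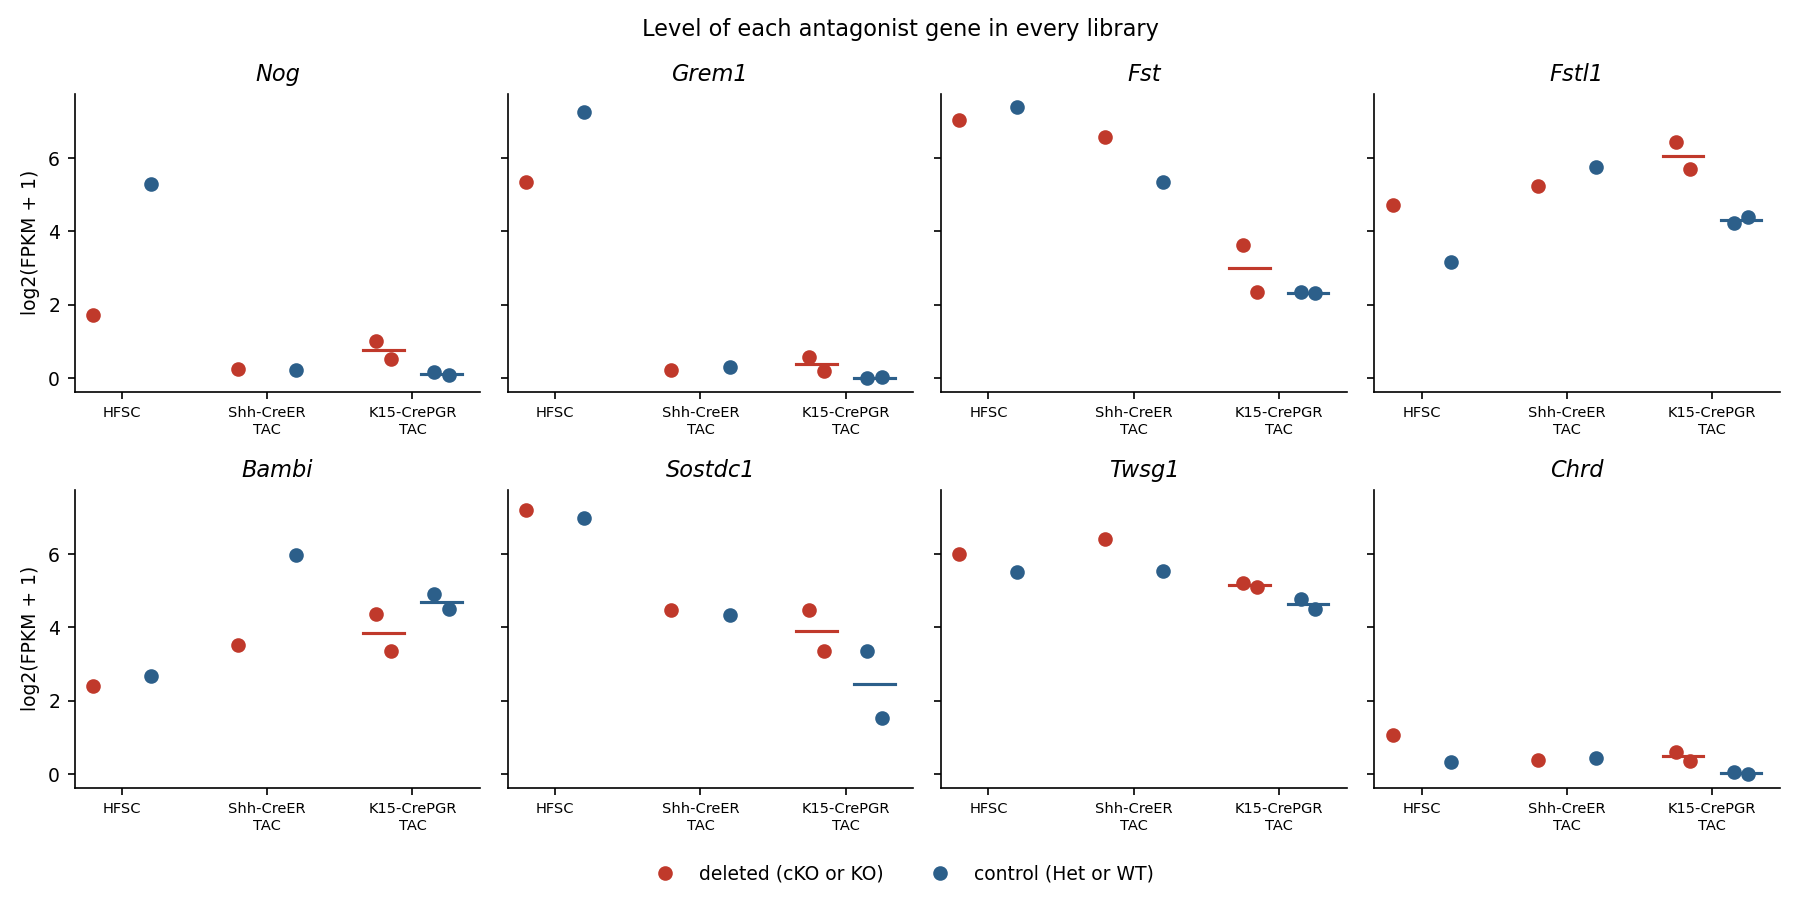
Level of each of the 8 genes in every library, as log2(FPKM + 1), with 1 point per library and a line at the mean of the 2 libraries of a K15-CrePGR genotype. The deleted libraries (red) stand left of their controls (blue). *Nog* and *Grem1* lie above 1 FPKM only in HFSC apart from 1.00 FPKM of *Nog* in KO 64, and *Chrd* is low everywhere.

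The summed level of the 8 genes was 414 FPKM in the HFSC cKO library and 539 FPKM in the HFSC Het library. In the cKO library *Sostdc1* made up 35.2% of that sum, *Fst* 31.7%, *Grem1* 9.67% and *Nog* 0.562%. In the Het library the shares were 23.2% for *Sostdc1*, 30.9% for *Fst*, 28.0% for *Grem1* and 7.09% for *Nog*. The smaller sum of the cKO library thus came with smaller shares of both ligand traps and a larger share of *Sostdc1*. In Shh-CreER TAC the sum was 246 FPKM in cKO and 220 FPKM in Het, and the gene with the most FPKM was *Fst* in cKO (37.9% of the sum) and *Bambi* in Het (28.0%). In K15-CrePGR TAC the sums were 176 FPKM in KO 64 and 108 FPKM in KO 84, against 86.8 FPKM in WT 52 and 69.4 FPKM in WT 57. *Fstl1* led in both KO libraries, with 48.7% and 47.4% of the sum, against 20.4% and 28.7% in WT 52 and WT 57. The 3 tables were normalised separately, and the K15-CrePGR table also holds unnamed loci with 78.4% to 79.0% of its summed FPKM. Sums of the 8 genes are therefore compared only within a table.

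**Figure D2:**
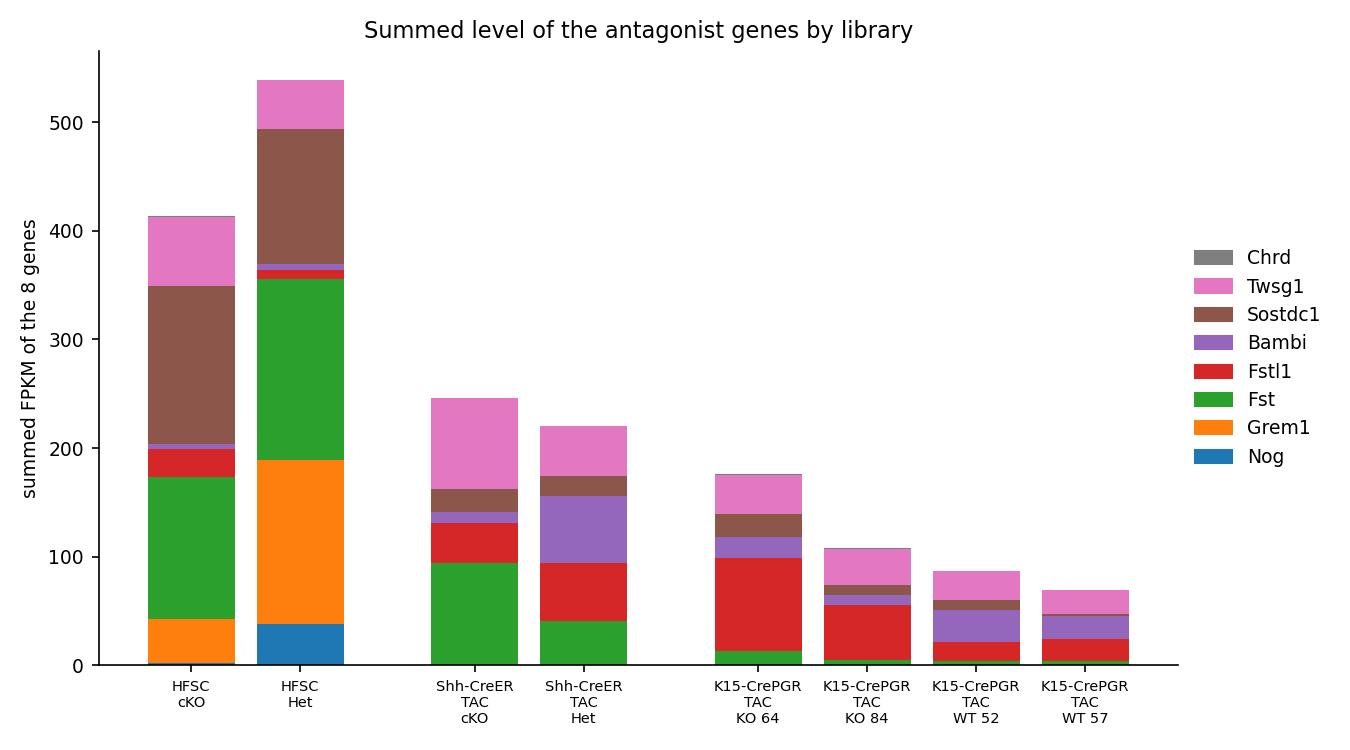
Summed FPKM of the 8 genes in each library, split by gene, with each deleted library left of its control. *Grem1* and *Nog* (orange and blue) take 9.67% and 0.562% of the HFSC cKO bar, against 28.0% and 7.09% of the HFSC Het bar, and *Fstl1* (red) forms the largest part of both K15-CrePGR KO bars.

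The sequence just upstream of the start site was at hand for 4 of the 8 genes, and it is shown for the 3 of them that averaged at least 1 FPKM in a table. The 250 bases before the start are given from RefSeq (GRCm38.p6), 5′ to 3′ on the strand of the gene. Capitals mark GGCGCC, a GC-rich element that Smads of the BMP branch can bind, and CAGAC or its complement GTCTG, the short Smad element, searched on both strands. The *Grem1* sequence lies at chr2:113758649-113758898 (minus strand), the *Fstl1* sequence at chr16:37776805-37777054 (plus strand) and the *Twsg1* sequence at chr17:65951188-65951437 (minus strand).
Grem1: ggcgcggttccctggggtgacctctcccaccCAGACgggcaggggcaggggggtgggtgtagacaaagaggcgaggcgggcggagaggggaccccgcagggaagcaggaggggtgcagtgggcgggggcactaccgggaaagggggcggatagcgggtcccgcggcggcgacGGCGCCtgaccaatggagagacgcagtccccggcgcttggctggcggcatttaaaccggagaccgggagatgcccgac
Fstl1: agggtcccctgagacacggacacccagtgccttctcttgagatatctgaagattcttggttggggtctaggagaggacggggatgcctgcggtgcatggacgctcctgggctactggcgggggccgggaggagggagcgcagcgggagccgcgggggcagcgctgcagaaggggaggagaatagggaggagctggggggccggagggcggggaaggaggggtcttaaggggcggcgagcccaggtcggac
Twsg1: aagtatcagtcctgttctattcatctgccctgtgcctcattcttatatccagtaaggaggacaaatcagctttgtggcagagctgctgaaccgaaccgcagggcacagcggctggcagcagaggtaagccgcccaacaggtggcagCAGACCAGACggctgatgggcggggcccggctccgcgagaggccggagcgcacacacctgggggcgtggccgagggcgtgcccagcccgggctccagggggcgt
The *Grem1* window held 1 GGCGCC and 1 CAGAC, and the *Twsg1* window held 2 CAGAC side by side. The window of *Chrd*, not shown, held 1 GGCGCC and 0 CAGAC. The *Fstl1* window held neither, which says only that these letters are not in these 250 bases. Among 32851 RefSeq promoters, 9.59% of the windows of this length held GGCGCC and 42.2% held CAGAC or GTCTG, so single matches of the short element are common. A match is a description of the letters and not evidence of binding. *Nog*, *Fst*, *Sostdc1* and *Bambi* are named only.

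*Nog* (mm9 chr11:89161952-89163873) encodes noggin, which binds BMP2, BMP4 and related ligands and covers their receptor contacts. It had 2.32 FPKM in the HFSC cKO library and 38.2 FPKM in the Het library, a 16.4-fold lower FPKM in cKO (log2 difference -3.56). These levels correspond to about 187 fragments in cKO and 3592 in Het. In Shh-CreER TAC the levels were 0.181 FPKM in cKO and 0.164 FPKM in Het, about 9 and 8 fragments, and no difference was detectable at that depth. In K15-CrePGR TAC *Nog* had 1.00 and 0.425 FPKM in KO 64 and KO 84, against 0.121 and 0.0539 FPKM in WT 52 and WT 57. Both KO libraries were above both WT libraries, but the mean was under 1 FPKM, the minimum for the test, and the WT values stand for about 5 and 3 fragments.

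*Grem1* (mm9 chr2:113586321-113598803) encodes gremlin 1, a secreted DAN-family protein that binds BMP2, BMP4 and BMP7. It had 40.0 FPKM in the HFSC cKO library and 151 FPKM in the Het library, a 3.77-fold lower FPKM in cKO (log2 difference -1.89). *Grem1* was nevertheless the fourth most abundant of the 8 genes in the cKO library and ranked at or above 89.5% of named entries there, while *Nog* ranked at or above 51.3%. In Shh-CreER TAC *Grem1* had 0.170 FPKM in cKO and 0.235 FPKM in Het, about 20 and 28 fragments. In K15-CrePGR TAC, its level was 0.486 and 0.156 FPKM in KO 64 and KO 84, and it was listed at 0 in WT 52 and had 0.0235 FPKM in WT 57. Both KO values were above both WT values, at about 54 and 15 fragments in KO 64 and KO 84, against about 3 in WT 57.

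*Chrd* (mm9 chr16:20725231-20742457) encodes chordin, a trap that the protease encoded by *Bmp1* cleaves. Its mean was under 1 FPKM in every table, and it was not among the genes tested or counted in any of them. It had 1.08 FPKM in the HFSC cKO library and 0.253 FPKM in the Het library, about 168 and 46 fragments. In Shh-CreER TAC, its level was 0.311 FPKM in cKO and 0.346 FPKM in Het. In K15-CrePGR TAC it had 0.528 and 0.288 FPKM in KO 64 and KO 84, against 0.0455 and 0.0101 FPKM in WT 52 and WT 57. *Chrd* was thus higher in the deleted libraries of the HFSC and K15-CrePGR tables, at low levels throughout. *Bmp1* had 29.7 FPKM in the HFSC cKO library against 9.91 FPKM in Het, and 45.9 and 37.1 FPKM in KO 64 and KO 84 against 16.3 and 19.9 FPKM in WT 52 and WT 57 (limma, unadjusted p = 0.00277, adjusted p = 0.122). In Shh-CreER TAC the protease had 34.8 FPKM in cKO and 31.0 FPKM in Het.

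*Twsg1* (mm9 chr17:66272405-66300527) encodes twisted gastrulation, which binds BMPs and chordin and can either strengthen or relieve the block. It had 63.6 FPKM in the HFSC cKO library and 44.8 FPKM in the Het library. In Shh-CreER TAC it had 83.4 FPKM in cKO and 45.5 FPKM in Het. In K15-CrePGR TAC, its level was 35.9 and 33.1 FPKM in KO 64 and KO 84, against 26.5 and 21.8 FPKM in WT 52 and WT 57. The deleted library or libraries were higher in each table, by less than 2-fold. In K15-CrePGR TAC the mean was 34.5 ± 1.97 FPKM in KO and 24.2 ± 3.30 FPKM in WT (SD, n = 2 each). The log2 difference of 0.50 had a standard error of 0.16 and did not pass (limma, unadjusted p = 0.0332, adjusted p = 0.254).

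*Sostdc1* (mm9 chr12:37040756-37045039) encodes a secreted protein, also called ectodin or wise, that binds BMPs and the Wnt co-receptors of the LRP family. In bulge stem cells it had 146 FPKM in the cKO library, the most of the 8 genes, and 125 FPKM in the Het library, where *Fst* and *Grem1* had more. In Shh-CreER TAC, its level was 21.3 FPKM in cKO and 19.0 FPKM in Het. In K15-CrePGR TAC it had 21.1 and 9.25 FPKM in KO 64 and KO 84, against 9.33 and 1.92 FPKM in WT 52 and WT 57. The genotypes overlapped, since KO 84 lay just under WT 52. The log2 difference of 1.45 had a 95% interval of -0.53 to 3.44 (limma, adjusted p = 0.378), and it ranged from 0.54 without WT 57 to 2.37 without WT 52. It was 0.90 without KO 64. Of the LRP partners, *Lrp4* had 107 FPKM in the Shh-CreER TAC cKO library against 48.8 FPKM in Het. It had 22.3 and 30.2 FPKM in KO 64 and KO 84, against 5.88 and 8.42 FPKM in WT 52 and WT 57 (limma, unadjusted p = 0.00156, adjusted p = 0.111). In HFSC *Lrp4* had 14.8 FPKM in cKO and 21.0 FPKM in Het.

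*Fst* (mm9 chr13:115242468-115249173) encodes follistatin, which binds activins tightly and some BMPs less tightly. In HFSC it had 131 FPKM in cKO and 167 FPKM in Het. In Shh-CreER TAC it had 93.5 FPKM in cKO and 40.0 FPKM in Het, a 2.34-fold higher FPKM in cKO (log2 difference 1.20). In K15-CrePGR TAC, its level was 11.5 and 4.12 FPKM in KO 64 and KO 84, against 4.09 and 3.98 FPKM in WT 52 and WT 57. The higher KO mean there was that of KO 64 alone: the log2 difference of 0.67 (limma, adjusted p = 0.482) was 0.03 without KO 64 and 1.31 without KO 84. *Inhbb*, which encodes an activin subunit and thus a ligand of follistatin, was higher in the deleted libraries of all 3 tables. It had 38.6 FPKM in the HFSC cKO library against 10.0 FPKM in Het, and 4.72 FPKM in the Shh-CreER TAC cKO library against 1.53 FPKM in Het. In K15-CrePGR TAC it had 10.0 and 12.7 FPKM in KO 64 and KO 84, against 2.32 and 1.55 FPKM in WT 52 and WT 57, a log2 difference of 2.08 (limma, unadjusted p = 6.14e-04, adjusted p = 0.0866).

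*Fstl1* (mm9 chr16:37776959-37836600) encodes a secreted glycoprotein with a follistatin domain that has been described as a BMP antagonist. It had 25.5 FPKM in the HFSC cKO library and 7.95 FPKM in the Het library, a 3.21-fold higher FPKM in cKO (log2 difference 1.57). In Shh-CreER TAC, its level was 36.9 FPKM in cKO and 53.4 FPKM in Het (log2 difference -0.52). In K15-CrePGR TAC, its level was 85.6 and 51.0 FPKM in KO 64 and KO 84, against 17.7 and 19.9 FPKM in WT 52 and WT 57. Both KO libraries were above both WT libraries, and *Fstl1* had the smallest p of the 5 tested genes of the group. Its mean was 68.3 ± 24.4 FPKM in KO and 18.8 ± 1.57 FPKM in WT (SD, n = 2 each). The log2 difference of 1.76 had a standard error of 0.29 and a 95% interval of 0.99 to 2.53, and it did not pass after adjustment over all genes (limma, unadjusted p = 0.00268, adjusted p = 0.121). The K15-CrePGR table lists a further locus named *Fstl1* at the same coordinates, with 9.28 and 7.49 FPKM in KO 64 and KO 84, against 2.44 and 1.02 FPKM in WT 52 and WT 57. Reads of the gene could be split between the pair of entries, and the sum of both gave a log2 difference of 1.81 (limma, adjusted p = 0.110).

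*Bambi*, on chromosome 18, encodes a membrane protein that resembles a type I receptor and binds ligand without signalling, and it is itself known as a gene that BMP signals switch on. In HFSC it was low, with 4.26 FPKM in cKO and 5.35 FPKM in Het. In Shh-CreER TAC it had 10.6 FPKM in cKO and 61.6 FPKM in Het, a 5.82-fold lower FPKM in cKO (log2 difference -2.43). In K15-CrePGR TAC it had 19.6 and 9.25 FPKM in KO 64 and KO 84, against 29.0 and 21.6 FPKM in WT 52 and WT 57. Both KO libraries were below both WT libraries, with a mean of 14.4 ± 7.30 FPKM in KO and 25.3 ± 5.22 FPKM in WT (SD, n = 2 each). The log2 difference of -0.84 did not pass (limma, unadjusted p = 0.0914, adjusted p = 0.347), and it was -1.35 without KO 64, -0.34 without KO 84 and -0.64 without WT 52. A pseudogene copy on chromosome 2, *Bambi-ps1*, had 5.45 and 4.06 FPKM in KO 64 and KO 84, against 9.63 and 7.56 FPKM in WT 52 and WT 57 (limma, unadjusted p = 0.0248, adjusted p = 0.235). It amounted to 27.8% to 44.0% of the *Bambi* FPKM in the K15-CrePGR libraries and to 1.12% to 2.60% in the other 4 libraries. Levels of *Bambi* in K15-CrePGR TAC are therefore uncertain, since reads could be divided between the gene and its copy.

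**Figure D3:**
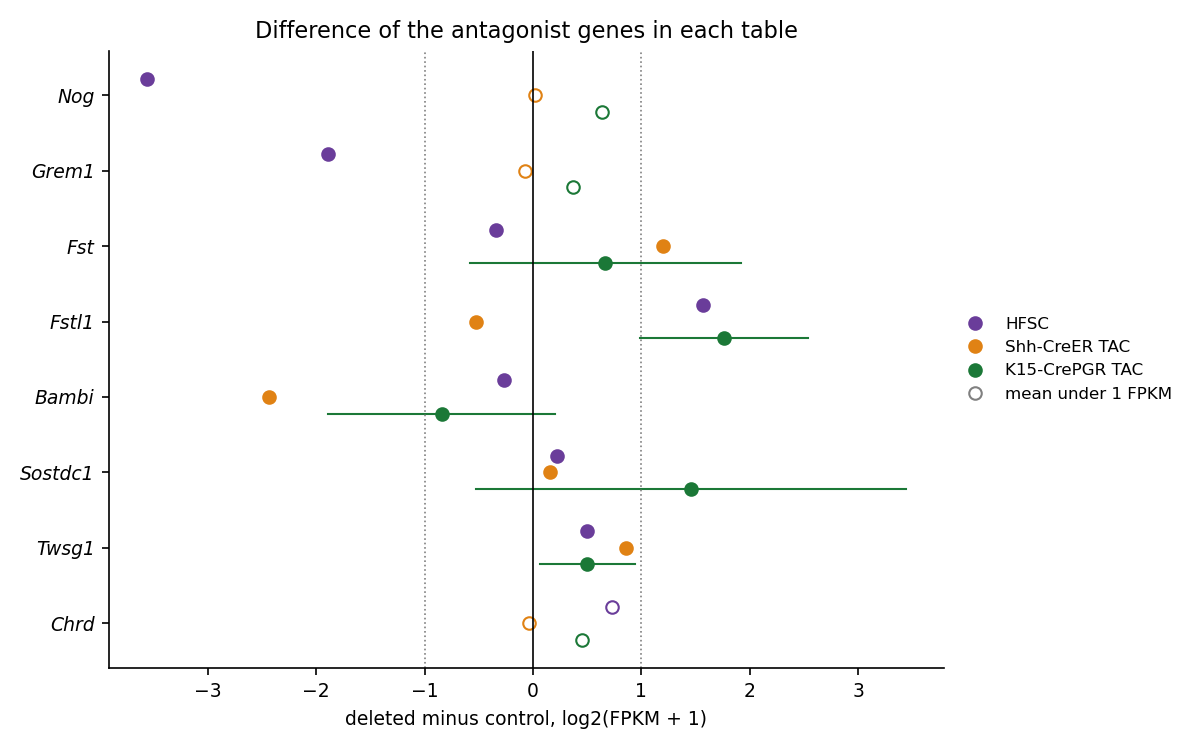
Difference of each gene, deleted minus control in log2(FPKM + 1), in the 3 tables. Lines are limma 95% intervals of the K15-CrePGR TAC table, open points have a mean under 1 FPKM, and dotted lines mark a 2-fold difference. *Nog* and *Grem1* in HFSC and *Bambi* in Shh-CreER TAC lie below the lower dotted line, and *Fstl1* lies above the upper line in HFSC and K15-CrePGR TAC but below 0 in Shh-CreER TAC.

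In HFSC, 7 of the 8 genes averaged at least 1 FPKM and entered the count. Of these 3 were at least 2-fold different, against 10.5% of all genes: 1 was higher in cKO (*Fstl1*, against 5.92% of 12205 genes) and 2 were lower (*Nog* and *Grem1*, against 4.6% of genes). Their median log2 difference was -0.27, against 0.05 over all genes. In Shh-CreER TAC, 5 genes reached that mean and 2 were at least 2-fold different, against 5.43% of all genes, with 1 higher (*Fst*, against 2.67% of 12296 genes) and 1 lower (*Bambi*, against 2.77%). Their median was 0.16, against 0.01 over all genes. The HFSC and Shh-CreER comparisons have 1 library per genotype, so their differences have no replicate check.

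In K15-CrePGR TAC, 5 of the 8 genes were tested with limma and 0 passed at an adjusted p of 0.05, where 0.0663% of 13565 genes did (5 higher, or 0.0369%, and 4 lower, or 0.0295%; 4 higher and 5 lower after quantile normalization). At an unadjusted p of 0.05, 2 of the 5 passed (*Fstl1* and *Twsg1*), against 17.4% of all genes. Both KO libraries were above both WT libraries for 3 of the 5 (*Fst*, *Fstl1* and *Twsg1*), against 26.8% of all genes, and below both for *Bambi*, against 27.5%. *Fst* entered that count narrowly, with 4.12 FPKM in KO 84 against 4.09 FPKM in WT 52. The median difference of the 5 genes was 0.67, against -0.03 over all genes, and it was 0.45 without KO 64 and 1.31 without KO 84. Scaling the libraries to the same sum over named loci moved the median of all genes to 0.13 and left the sign of each of the 5 genes in place.

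KO 64 had the highest level of 7 of the 8 genes, *Bambi* being the exception, and of 4 of the 5 tested ones, against 25.9% of all tested genes. Markers of several other cell types stood highest in the same library, and those of others were highest in KO 84 or lower in both KO libraries. The summed FPKM of 8 fibroblast markers was 1514 in KO 64 and 468 in KO 84, against 405 in WT 52 and 430 in WT 57, and all 8 were highest in KO 64. The 10 dermal papilla markers summed to 146 FPKM in KO 64 and 72.5 FPKM in KO 84, against 38.0 and 39.9 FPKM in WT 52 and WT 57, and all 10 were highest in KO 64. *Wif1* alone gave 96.9 and 57.1 FPKM of these sums in KO 64 and KO 84, against 25.3 and 29.5 FPKM in WT 52 and WT 57. Immune markers (6 genes) summed to 858 and 147 FPKM in KO 64 and KO 84, against 101 and 25.4 FPKM in WT 52 and WT 57, and endothelial markers (4 genes) to 23.0 and 2.81 FPKM, against 2.12 and 1.04 FPKM. The 8 bulge markers summed to 503 and 626 FPKM in KO 64 and KO 84, against 129 and 181 FPKM in WT 52 and WT 57, and the 4 isthmus markers to 278 and 845 FPKM, against 35.2 and 32.4 FPKM. Inner root sheath markers were lower in both KO libraries, at 1495 and 1347 FPKM in KO 64 and KO 84, against 4375 and 4637 FPKM in WT 52 and WT 57. Hair shaft keratins were lower too, at 813 and 652 FPKM, against 2820 and 2344 FPKM. *Nog*, *Grem1*, *Sostdc1* and *Fst* are themselves abundant in the HFSC Het library, with 38.2 FPKM or more each. Of the 8 fibroblast markers, 7 were above both WT libraries in both KO libraries (26.8% of all genes), and the median log2 difference of the 8 was 2.11. *Fstl1* had 51.0 FPKM in KO 84, against 17.7 and 19.9 FPKM in WT 52 and WT 57, and its log2 difference without KO 64 was 1.40. The part of the cells that these markers stand for in the levels of the 8 antagonist genes in KO 64 and KO 84 was not tested.

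**Figure D4:**
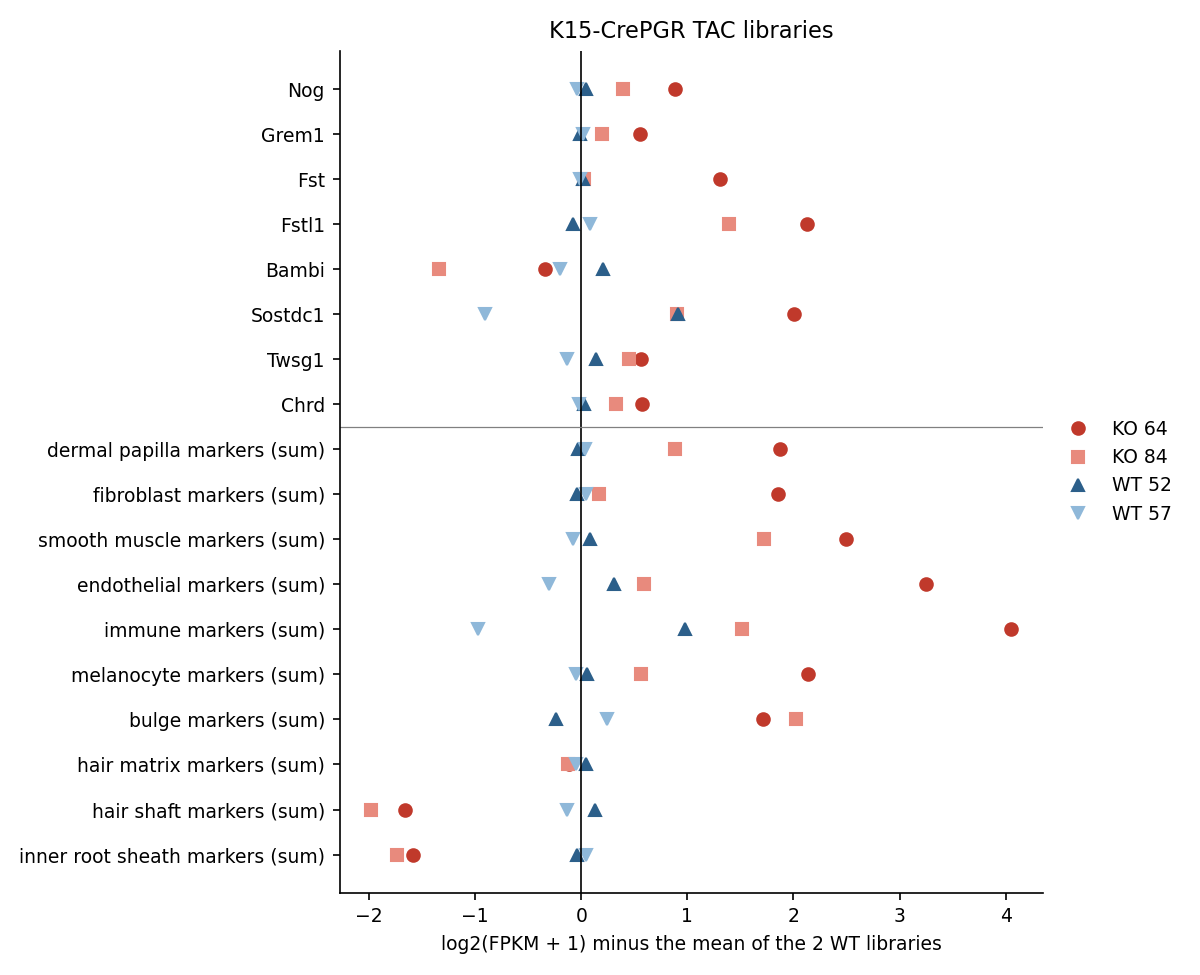
Level of the 8 genes and summed level of cell type markers in the 4 K15-CrePGR TAC libraries, as log2(FPKM + 1) minus the mean of the 2 WT libraries. KO 64 (red circles) lies rightmost for 7 of the 8 genes and for the fibroblast, dermal papilla, endothelial and immune sums, and *Bambi* lies left of both WT libraries in both KO libraries.

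Markers also moved with the genotype in the other tables. In HFSC, smooth muscle markers summed to 96.2 FPKM in cKO and 11.8 FPKM in Het. *Acta2*, *Tagln* and *Myl9* made up most of the cKO sum, with 23.2, 23.2 and 48.1 FPKM. *Cnn1* had 1.64 FPKM in cKO and 0.771 FPKM in Het, and *Myh11* 0.0892 and 0.0490 FPKM. *Des* was listed at 0 in cKO and had 0.0502 FPKM in Het. Sebaceous markers summed to 54.8 FPKM in cKO and 219 FPKM in Het. Of the 10 dermal papilla markers *Wif1* had 17.2 FPKM in cKO and 13.5 FPKM in Het, and the other 9 summed to 1.85 FPKM in cKO, where *Sox2* was listed at 0, and to 2.93 FPKM in Het. Fibroblast markers summed to 15.6 FPKM in cKO and 20.0 FPKM in Het. Cornified epidermis markers summed to 2871 FPKM in cKO and 6973 FPKM in Het, and immune markers to 122 FPKM in cKO and 303 FPKM in Het. In Shh-CreER TAC, isthmus markers summed to 706 FPKM in cKO and 77.9 FPKM in Het, hair shaft keratins to 474 FPKM in cKO and 5155 FPKM in Het. All 5 skeletal muscle markers were at least 2-fold lower in cKO, with sums of 31.3 FPKM in cKO and 153 FPKM in Het, and all 6 sebaceous markers at least 2-fold higher, with sums of 76.9 FPKM in cKO and 22.7 FPKM in Het. Of the 10 dermal papilla markers *Wif1* had 459 FPKM in cKO and 232 FPKM in Het, and the other 9 summed to 11.04 FPKM in cKO and 8.46 FPKM in Het. Whether these sums reflect the number of such cells was not tested. Neither was the part of such cells in the levels of *Nog*, *Grem1*, *Fst* and *Bambi*.

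Of 15 other extracellular antagonists, 7 averaged at least 1 FPKM in HFSC, 7 in Shh-CreER TAC and 8 in K15-CrePGR TAC. In HFSC 2 were at least 2-fold higher in cKO and 0 lower (5.92% and 4.6% of all genes), and in Shh-CreER TAC 2 were higher and 1 lower (2.67% and 2.77% of all genes). In K15-CrePGR TAC 7 of the 8 were above both WT libraries in both KO libraries (26.8% of all genes) and 5 had an unadjusted p under 0.05 (17.4% of all genes), but 0 passed after adjustment (limma). Their median log2 difference was -0.01 in HFSC, 0.17 in Shh-CreER TAC and 1.05 in K15-CrePGR TAC, beside 0.05, 0.01 and -0.03 over all genes.

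*Smoc2*, a secreted calcium-binding matrix protein, was higher in the deleted libraries of all 3 tables. It had 213 FPKM in the HFSC cKO library against 40.6 FPKM in Het, and 172 FPKM in the Shh-CreER TAC cKO library against 29.7 FPKM in Het. In K15-CrePGR TAC, its level was 110 and 154 FPKM in KO 64 and KO 84, against 22.7 and 25.3 FPKM in WT 52 and WT 57. The log2 differences were 2.37, 2.49 and 2.39 in that order of tables (limma in the last, unadjusted p = 2.47e-04, adjusted p = 0.0866), and *Smoc2* was higher in KO 84 than in KO 64, whereas each of the 8 genes was higher in KO 64. Its relative *Smoc1*, for which BMP antagonism was shown in *Xenopus*, had 24.8 FPKM in the HFSC cKO library against 3.68 FPKM in Het. In K15-CrePGR TAC *Smoc1* had 4.92 and 7.22 FPKM in KO 64 and KO 84, against 0.744 and 0.704 FPKM in WT 52 and WT 57 (log2 difference 2.02). In Shh-CreER TAC *Smoc1* had 0.280 FPKM in cKO and 0.673 FPKM in Het.

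*Nbl1*, a DAN-family antagonist like gremlin, had 154 FPKM in the HFSC cKO library and 258 FPKM in the Het library. It had 16.2 FPKM in the Shh-CreER TAC cKO library and 6.90 FPKM in Het. In K15-CrePGR TAC it had 23.8 and 22.4 FPKM in KO 64 and KO 84, against 5.15 and 4.81 FPKM in WT 52 and WT 57, a log2 difference of 2.01 (limma, unadjusted p = 8.36e-05, adjusted p = 0.0597). *Nbl1* was thus lower in cKO in HFSC, as *Grem1* was, and higher in the deleted libraries of both TAC tables. *Bmper*, a chordin-like protein that can block or favour BMPs, had 1.34 FPKM in the Shh-CreER TAC cKO library and 8.61 FPKM in Het. In K15-CrePGR TAC *Bmper* had 6.35 and 10.4 FPKM in KO 64 and KO 84, against 5.69 and 3.92 FPKM in WT 52 and WT 57 (log2 difference 0.67). *Htra1*, a secreted protease that dampens signals of this family, had 136 FPKM in the HFSC cKO library against 74.8 FPKM in Het, and in K15-CrePGR TAC 106 and 145 FPKM in KO 64 and KO 84 against 51.2 and 59.6 FPKM in WT 52 and WT 57. In Shh-CreER TAC *Htra1* had 109 FPKM in cKO and 106 FPKM in Het. *Crim1*, *Fstl3* and *Dand5* differed by less than 1 on the log2(FPKM + 1) scale in every table, with differences of 0.94, 0.41 and 0.00 in K15-CrePGR TAC, where *Crim1* had a 2.08-fold higher mean FPKM in KO. None of these genes passed after adjustment.

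**Figure D5:**
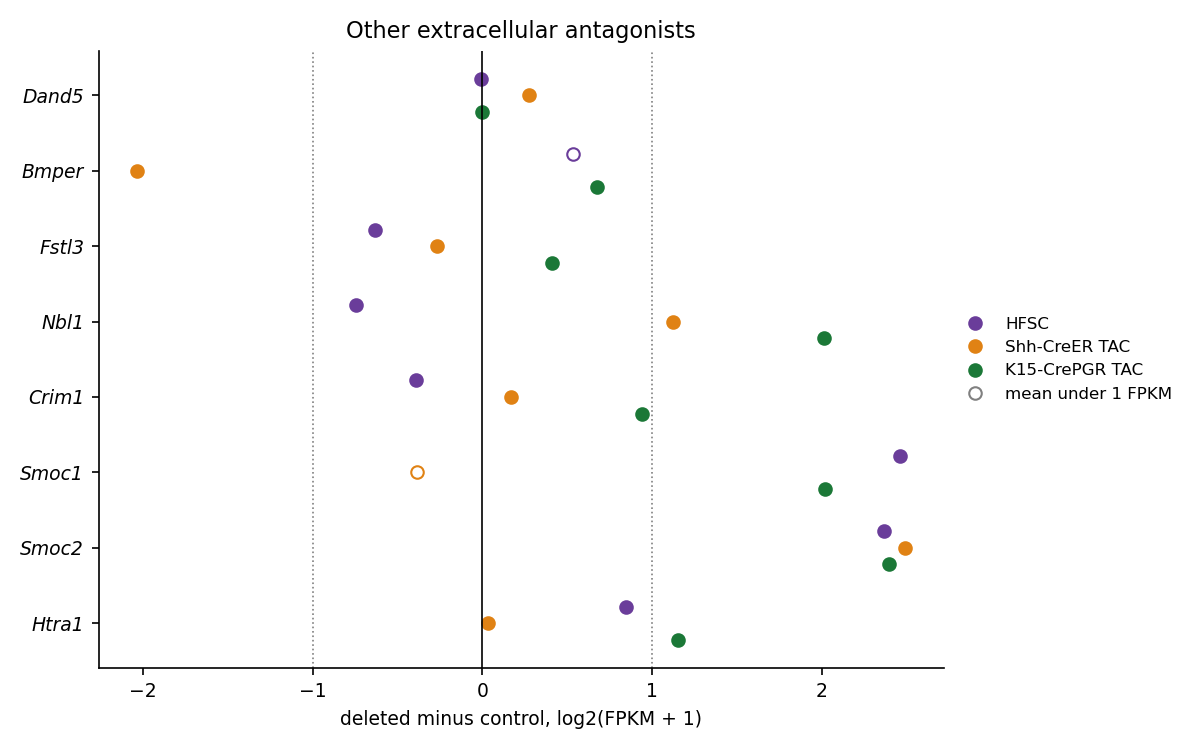
Difference of the 8 further extracellular antagonists averaging at least 1 FPKM in at least 1 table, deleted minus control in log2(FPKM + 1). Open points have a mean under 1 FPKM in that table. *Smoc2* lies at 2.37, 2.49 and 2.39 in the 3 tables. *Nbl1*, *Bmper*, *Smoc1*, *Crim1*, *Fstl3* and *Dand5* lie on different sides of 0 in different tables.

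The ligands that these proteins bind were measured in the same libraries. Of 15 BMP and activin ligand genes, 6 averaged at least 1 FPKM in HFSC, of which 1 was at least 2-fold higher in cKO and 0 lower (5.92% and 4.6% of all genes). In Shh-CreER TAC 7 reached it, with 1 at least 2-fold higher and 1 lower (2.67% and 2.77%). In K15-CrePGR TAC 7 reached it, 5 were above both WT libraries in both KO libraries (26.8%) and 1 was below (27.5%), 4 had an unadjusted p under 0.05 (17.4%), and 0 passed after adjustment (limma). The ligands had a median log2 difference of 0.01 in HFSC, 0.45 in Shh-CreER TAC and 0.81 in K15-CrePGR TAC. *Bmp2*, a ligand of noggin and gremlin, had 23.2 and 28.3 FPKM in KO 64 and KO 84, against 2.84 and 2.98 FPKM in WT 52 and WT 57, a log2 difference of 2.77 (limma, unadjusted p = 4.48e-05, adjusted p = 0.0560). It had 65.9 FPKM in the Shh-CreER TAC cKO library against 42.3 FPKM in Het, and 9.61 FPKM in the HFSC cKO library against 13.0 FPKM in Het. Among 12 known targets of the pathway, of which 12, 11 and 11 averaged at least 1 FPKM, the median log2 difference was -1.06 in HFSC, -1.02 in Shh-CreER TAC and -0.78 in K15-CrePGR TAC. The last was -1.03 without KO 64, -0.32 without KO 84 and -0.51 without WT 52, and the HFSC median was -0.53 with a pseudocount of 5 FPKM. *Id3*, a target that encodes an inhibitor of differentiation, had 116 FPKM in the HFSC cKO library against 447 FPKM in Het, and 221 FPKM in the Shh-CreER TAC cKO library against 562 FPKM in Het. In K15-CrePGR TAC *Id3* had 184 and 112 FPKM in KO 64 and KO 84, against 573 and 315 FPKM in WT 52 and WT 57 (limma, unadjusted p = 0.0161, adjusted p = 0.206). *Id4*, of the same family, was higher in the deleted libraries, with 118 FPKM in the HFSC cKO library against 41.9 FPKM in Het, and 26.9 and 17.7 FPKM in KO 64 and KO 84 against 13.4 and 8.82 FPKM in WT 52 and WT 57 (limma, unadjusted p = 0.0311, adjusted p = 0.249). It had 9.25 FPKM in the Shh-CreER TAC cKO library and 8.28 FPKM in Het. The median differences of the receptor genes that averaged at least 1 FPKM (10 of 11 in each table) were 0.11, 0.16 and 0.33 in HFSC, Shh-CreER TAC and K15-CrePGR TAC (0.19 there without KO 84). Those of the Smad genes (8, 7 and 7 of 8) were 0.29, 0.12 and -0.04. Single genes moved more. The receptor gene *Rgma* was at least 2-fold higher in cKO in HFSC (5.92% of all genes) and in Shh-CreER TAC (2.67%). *Smad9* and *Smad7* were at least 2-fold lower in HFSC (4.6% of all genes). In K15-CrePGR TAC 6 of the 10 receptor genes were above both WT libraries in both KO libraries (26.8% of all genes).

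The genes most like each member were sought over the 8 libraries, by Euclidean distance in log2(FPKM + 1) centred on the mean of each table, among 7394 genes averaging at least 5 FPKM in every table. *Fst*, *Fstl1* and *Sostdc1* met the conditions for this search. The nearest to *Fst* were *Lamb2*, *Tmem158* and *Il6st*, at distances of 0.49, 0.50 and 0.54, where the median distance over all genes was 1.61. The nearest to *Fstl1* were *Anxa6*, *Nedd9* and *Efemp1*, at 0.56, 0.66 and 0.67 against a median of 2.27. The nearest to *Sostdc1* were *Fosb*, *Zfp36* and *Gem*, at 0.53, 0.66 and 0.73 against a median of 2.23. *Anxa6*, for example, had log2 differences of 1.13 in HFSC, -0.24 in Shh-CreER TAC and 2.12 in K15-CrePGR TAC, beside 1.57, -0.52 and 1.76 for *Fstl1*. These distances describe 8 libraries that share 3 tables and their controls.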

How the data were processed

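RNA-seq of hair follicle cells was analysed from 3 tables of FPKM values, 8 libraries in all, with 0 further sample columns left unused. The authors made the deposited FPKM with TopHat and Cufflinks on mouse build mm9, per the submitters' processing notes; no source used here gives their versions or the annotation. From the FPKM, log2(FPKM + 1) was computed, genes averaging at least 1 FPKM in a table were kept, and symbols with several entries were represented by the entry with the highest mean. K15-CrePGR TAC libraries were compared with limma 3.58.1 in R 4.3.3 (intensity trend, two-sided, Benjamini-Hochberg over all genes kept, threshold 0.05); the HFSC and Shh-CreER tables have 1 library per genotype and no test, and a 2-fold difference on that scale was counted. The pseudocount of 1 FPKM understates changes of low genes. Depth was estimated from steps between low FPKM, so fragment numbers are approximate. The fit was checked on simulated data. Named were the 8 members, *Bmpr1a* and every further antagonist kept in a table. Of each other list, up to 4 genes with the largest differences at a mean of at least 5 FPKM were named. The 3 genes most like a member were named where that member had a mean of at least 5 FPKM in every table and a 2-fold difference in one. *Bambi-ps1*, *Xist*, *Ddx3y*, *Wif1*, *Sox2*, *Krt15*, *Cd34*, *Fgf18*, *Sox9* and the smooth muscle genes were named after their values were seen. So were *Inhbb*, *Smoc1*, *Bmp2*, *Id4*, *Rgma* and *Smad9* in tables where they fall outside that rule. The members and lists were chosen with earlier results of these data known. Alternatives were the pseudocount, the filter, the scaling, the trend, summed entries and leaving out each library.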

Additional observations from a re-analysis of the deposited data

Results flagged for a closer look

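*Nog*, *Grem1*, *Fst*, *Fstl1* and *Chrd* had differences of opposite sign in different tables, deleted minus control in log2(FPKM + 1). The share of all genes with such signs was not computed, so no excess among the 8 genes is claimed. The difference between tables was not tested, because HFSC and Shh-CreER TAC have 1 library per genotype. *Nog* differed by -3.56 in HFSC, against 0.02 in Shh-CreER TAC and 0.64 in K15-CrePGR TAC, where its mean was under 1 FPKM. *Grem1* differed by -1.89 in HFSC and by -0.077 in Shh-CreER TAC, against 0.37 in K15-CrePGR TAC, again at means under 1 FPKM in both TAC tables. *Fst* differed by -0.34 in HFSC, against 1.20 in Shh-CreER TAC and 0.67 in K15-CrePGR TAC. *Fstl1* differed by 1.57 in HFSC and 1.76 in K15-CrePGR TAC, against -0.52 in Shh-CreER TAC. *Chrd* differed by 0.73 in HFSC and 0.45 in K15-CrePGR TAC, against -0.037 in Shh-CreER TAC, at means under 1 FPKM in all 3 tables. Its Shh-CreER TAC levels stood for about 29 fragments in cKO and 32 in Het, so that sign rests on few fragments. The same holds for *Nog* there, at about 9 and 8 fragments, and for *Grem1*, at about 20 and 28.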

How the results depend on the processing

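The number of the 8 genes at least 2-fold different was 3 in HFSC and 2 in Shh-CreER TAC under all 6 alternatives each, and the number called in K15-CrePGR TAC was 0 under all 14. Of the genes that entered these counts, none changed sign in its table under these alternatives. Over all genes, the HFSC count of 1284 was 580 with a pseudocount of 5 FPKM and 854 at a mean of at least 5 FPKM, and the Shh-CreER TAC count of 668 was 292 and 427. The 9 genes called in K15-CrePGR TAC became 21 with a pseudocount of 0.1 FPKM, 15 at a mean of at least 5 FPKM, 5 with no filter, 14 after scaling to the sum of named loci, and 0 with loci at 0 in a library left out, an alternative chosen after seeing the data. Leaving out a library gave 0 to 23 calls (15 without KO 64, 23 without KO 84, 0 without WT 52 and 0 without WT 57), where the lone library is assumed to vary like the others. The median of the ligands was 0.89 in HFSC at a mean of at least 5 FPKM, against 0.01, and 0.17 in K15-CrePGR TAC with no filter, against 0.81, as other genes then enter the list; the cause of the remaining shifts was not tested. *Fstl1* kept a log2 difference of 1.40 to 2.13 in K15-CrePGR TAC, with adjusted p of 0.0720 to 0.653 (limma). No paired analysis was possible because the genotypes of the K15-CrePGR table share no sample number and the other tables have 1 library per genotype. Low levels limit *Nog*, *Grem1* and *Chrd* in TAC. All 8 genes are limited by 1 library per genotype in HFSC and Shh-CreER TAC and by 2 in K15-CrePGR TAC.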
